A study of Mus musculus with 2 samples.

Results

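Interferon response microglia are the cells of these libraries that carried several transcripts of a small set of interferon-stimulated genes. Cells were barcodes with at least 2400 unique molecular identifiers (UMIs, each counting 1 captured transcript), at least 300 genes and at most 10% of UMIs from mitochondrially encoded genes. A cell was taken when it held at least 1 UMI of 3 or more of 8 genes, Ifit1, Ifit2, Ifit3, Ifit3b, Rsad2, Cmpk2, Isg15 and Usp18. The selection found 288 of 4439 cells, 175 of 2131 in the medial and 113 of 2308 in the lateral library.

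Both libraries were made from microglia, the resident macrophages of the brain, of C57Bl6 mice with the genotype given as CX3CR1, after 4 weeks of cuprizone. Cuprizone, a copper-binding toxin given in food, injures the myelin-forming oligodendrocytes, above all in the corpus callosum, the tract between the hemispheres. 1 library covers the medial part of that tract and 1 the lateral part, with tissue dissociated by GentleMACS, cells sorted by flow cytometry and loaded for 10x 3' libraries. All cells thus share genotype and cuprizone, and no untreated animals are compared here. Which CX3CR1 allele the mice carried, their number and the sort gate are not stated in the sources used.

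Type I interferons are secreted alarm signals that bind the receptor made of Ifnar1 and Ifnar2. Receptor engagement activates a complex of transcription factors that binds a promoter element, the interferon-stimulated response element (ISRE), and switches on antiviral genes. Among them are Irf7, which amplifies interferon production, and Usp18, which removes the ubiquitin-like Isg15 from proteins and dampens the receptor. Microglia with such a programme are known from infected, ageing and demyelinated brain.

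The 8 genes that chose the cells fall into a few functional kinds. Ifit1, Ifit2, Ifit3 and Ifit3b encode RNA-binding proteins that hinder translation of viral RNA and lie side by side on chromosome 19. Rsad2 (viperin), which makes a chain-terminating nucleotide, and Cmpk2, a mitochondrial nucleotide kinase, are neighbours on chromosome 12. Isg15 lies on chromosome 4 and Usp18 on chromosome 6. The mouse RefSeq promoter sequences of build GRCm38.p6 hold an entry for 7 of the 8, with none for Usp18, and 5 of those 7 carry the ISRE core GAAANNGAAA, or TTTCNNTTTC on the other strand, within 250 bases before the start. The stretches of these 5 are shown because they have this short element in common. Matches are in capitals, with 30 bases on each side where the window allows.
Ifit1 (chr19:34640755-34640843, + strand): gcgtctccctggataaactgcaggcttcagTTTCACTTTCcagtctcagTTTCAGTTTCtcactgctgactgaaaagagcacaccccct
Ifit3 (chr19:34583343-34583446, + strand): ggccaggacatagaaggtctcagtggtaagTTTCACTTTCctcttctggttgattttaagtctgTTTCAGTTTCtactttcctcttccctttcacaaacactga
Ifit3b (chr19:34607739-34607842, + strand): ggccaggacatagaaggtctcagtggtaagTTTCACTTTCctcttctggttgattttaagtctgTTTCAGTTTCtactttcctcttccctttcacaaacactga
Rsad2 (chr12:26456533-26456602, - strand): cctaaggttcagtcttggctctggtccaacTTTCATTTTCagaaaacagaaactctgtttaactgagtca
Isg15 (chr4:156200845-156200926, - strand): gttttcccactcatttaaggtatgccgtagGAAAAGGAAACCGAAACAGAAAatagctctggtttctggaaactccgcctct

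The Ifit3 and Ifit3b stretches, 104 bases each, differed at 0 bases. Isg15 held 3 overlapping matches in 1 run. In Ifit2 and Cmpk2 these letters were not in the window. The same core lay in 3.46% of the 27025 genes with a promoter entry, so a match describes letters and not a bound site.

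The transcripts of the 8 genes were spread unevenly over the selected cells. Each cell held at least 3 UMIs of the 8 genes by the selection itself, the median was 6 in both libraries, and the highest was 264 in a medial and 205 in a lateral cell. The 10 cells with most of these UMIs carried 44.9% of all those found in medial interferon response cells and 57.7% of those in lateral ones. At the other end, 36 medial and 21 lateral cells held exactly 3, and 24 and 15 held 20 or more. So a small number of cells with a strong response and a larger number near the limit make up the population. Just inside the limit lay 96 medial and 59 lateral cells with exactly 3 of the genes, at 329 and 371 CPM (CPM, UMIs of the summed cells scaled to a fixed total) of the 8 together. Just outside it lay 231 medial and 199 lateral cells with exactly 2, at 249 and 234 CPM. All 8 genes were found in 11 medial and 8 lateral cells.

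**Figure D1:**
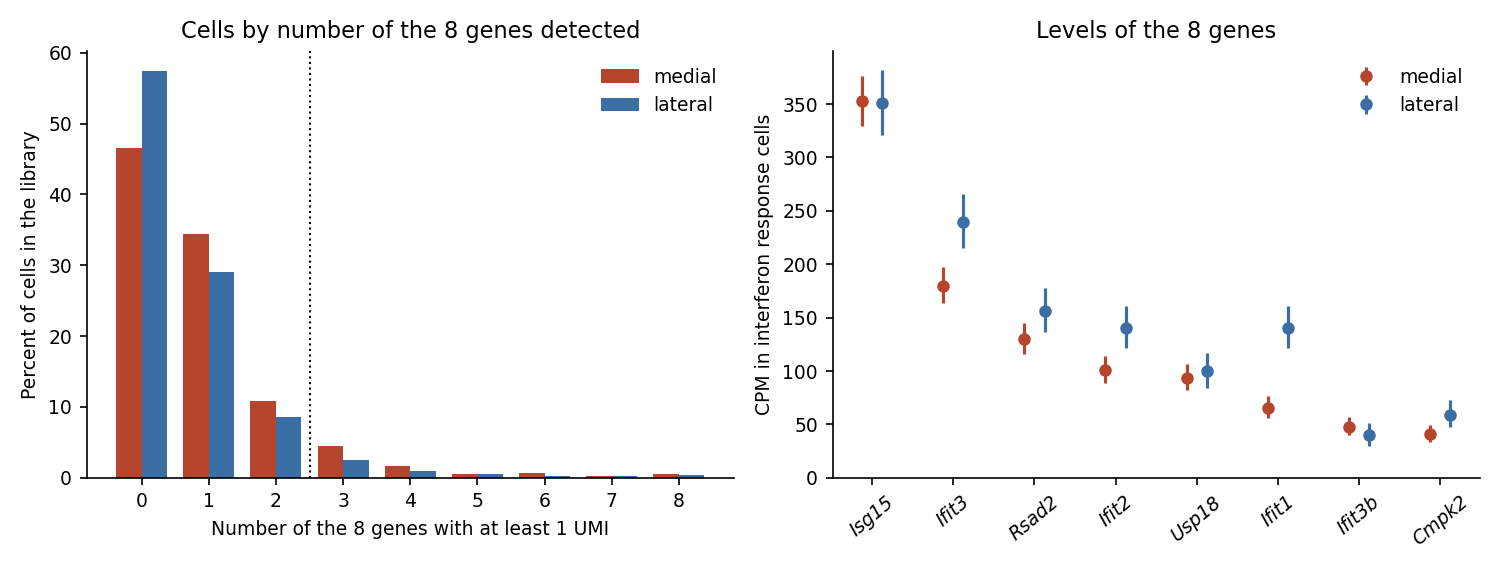
The left plot gives the percent of cells in each library (y axis) by how many of the 8 selecting genes had at least 1 UMI (x axis), with the limit of 3 as a dotted line. The right plot gives each gene's CPM over the summed interferon response cells with exact Poisson 95% intervals, and the medial point for Ifit1 (65.7) lies under the lateral one (140).

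Isg15 was the gene most often detected, in 168 of 175 medial and 106 of 113 lateral interferon response cells. It was not confined to them, since these cells held 43.4% of all medial and 34.2% of all lateral Isg15 UMIs. For Ifit3 the shares were 82.3% and 79.6%, for Ifit3b 87.7% and 88.1%, and for Ifit1 79.0% and 85.2%. Ifit3 was found in 109 and 76 of the cells, Usp18 in 105 and 65, Ifit2 in 88 and 68, Rsad2 in 82 and 51, Ifit1 in 61 and 45, Cmpk2 in 48 and 29, and Ifit3b in 41 and 25. These values follow from the selection and are a description. In the annotation 13.5% of the 57-base windows in the last 500 bases of Ifit3 also occur in Ifit3b. With the pair counted as 1 gene, 172 medial and 111 lateral cells would still have reached 3 genes.

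Interferon response cells made up 8.21% of medial cells (7.08 to 9.46, exact Clopper-Pearson 95% interval) and 4.90% of lateral cells (4.05 to 5.86). These and all later intervals cover counting error only. The medial cells were deeper, with a median of 10732 UMIs against 9694 in lateral cells, and the chance to detect 3 genes grows with depth. With every cell thinned to 4000 UMIs the shares were 2.72% of 1983 medial and 1.71% of 2047 lateral cells, after 148 and 261 shallower cells were left out. Over 20 thinning draws they ran from 2.17% to 2.72% in the medial and from 1.51% to 1.95% in the lateral library, with means of 2.49% and 1.71%. The medial share was thus the higher before and after thinning. In thinned cells, however, the 95% intervals of the shares overlapped, at 2.05 to 3.54 medial and 1.19 to 2.37 lateral. The range over draws covers the thinning alone. Each region had 1 library, so no test between regions was possible.

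Free RNA was also measured. Interferon response cells held the 8 genes at 1011 CPM in the medial and 1226 CPM in the lateral library, against 239 and 130 CPM in barcodes with at most 100 UMIs. That is 14.6 and 16.1 UMIs of the 8 genes per interferon response cell, against 0.00331 and 0.00168 per such barcode, whose UMIs averaged 13.8 and 12.96 in all. A background share of cells with a UMI from another cell type was not computed. Among barcodes with 500 to 2399 UMIs, under the limit for cells, 0 of 225 medial ones met the selection, which allows a share of up to 1.33%, and 1 of 208 lateral ones did. The libraries shared 7 cell barcodes, 0 of them in interferon response cells. Scrublet, a doublet caller, marked 5 medial and 5 lateral cells, 0 of them in this population.

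For comparison, each interferon response cell was matched with up to 3 cells of its own library that held 0 UMIs of all 8 genes and had the nearest total UMIs. This gave 447 medial and 336 lateral matched cells; 3 medial and 1 lateral interferon response cells had no match within the limit. Median UMIs were 13732 in medial interferon response cells and 12683 in their matched cells, and 12852 and 12785.5 in the lateral pair. UMIs were summed per library and class and fitted in edgeR's quasi-likelihood model with library as a block. The 8 selecting genes were left out of the test. Here n is 2 libraries, from 2 regions. A p-value sets the difference between members and matched cells against a spread between libraries that is estimated largely across all genes tested. A gene can thus pass with unlike ratios in the 2 libraries, as Mx1 did at log2 ratios of 2.89 medial and 6.01 lateral. Spread between cells or between animals is not measured.

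The label was checked against markers. All 12 listed microglia markers were detected, at 206 medial and 209 lateral of 10000 UMIs in interferon response cells, against 206 and 202 in matched cells. The T cell, B cell and monocyte genes Cd3e, Ms4a1 and Chil3 were at 0 in all 4 sums, as were the border macrophage genes Cd163 and Lyve1. Other members of these lists did have UMIs. In interferon response cells of each library these were 6 of 10 border macrophage and 4 of 10 monocyte genes. They were also 1 of 10 T or NK cell genes and 1 of 8 B cell genes. The dendritic cell list stood at 7.17 and 6.94 per 10000 UMIs in interferon response cells and 4.93 and 4.71 in matched cells. It contains Bst2, an interferon-stimulated gene, and Siglech, a microglial one. Of its other members, Flt3, Xcr1 and Clec9a were at 0 in interferon response cells, while Ccr7 and Zbtb46 were detected. The other lists came to at most 1.80 per 10000. The marker genes given for interferon microglia all belong to the selection and so check nothing. The median mitochondrial share was 2.07% for medial and 2.16% for lateral interferon response cells, against 2.25% and 2.44% for matched cells.

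Of 10402 genes tested, 234 were higher in interferon response cells (2.25%) and 25 were lower (0.24%) at an adjusted p under 0.05 by edgeR with Benjamini-Hochberg adjustment. All 259 had the same sign in both libraries. For the lists given below with 0 lower genes, an unadjusted p under 0.05 gave 0 lower genes as well, apart from 2 of the homeostatic list, P2ry12 and Ltc4s, and DESeq2 gave 0 in each. Across 4 lists of such genes (antiviral effectors, nucleic acid sensors, interferon signalling, and other stimulated genes) 85 of 114 tested members were higher, or 74.6%, and 1 was lower, with a median log2 ratio of 1.14 against -0.0047 over all genes tested. DESeq2 on the same sums called 79 genes higher and 3 lower in all, with 49 of the 114 list members higher; with library left out of the model 65 of these members were higher and in thinned cells 62 of 113.

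**Figure D2:**
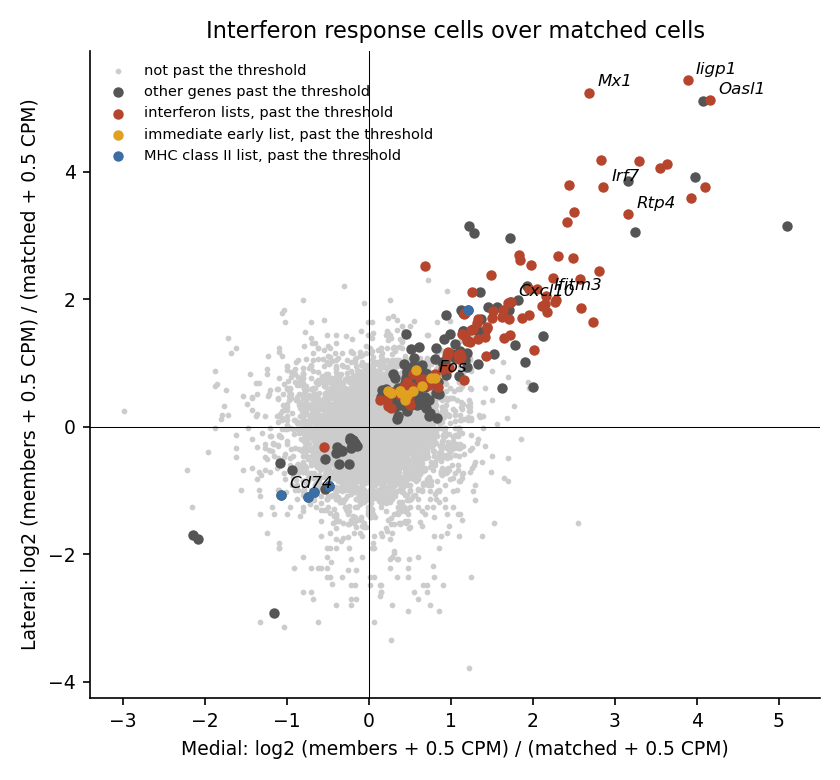
Each point is 1 gene tested, with its log2 ratio of interferon response cells over matched cells in the medial library on the x axis and in the lateral library on the y axis, after 0.5 CPM was added to both. Grey points did not pass the test; red points are interferon lists, yellow immediate early genes and blue MHC class II genes that passed, and the red points lie in the upper right apart from 1, Ifi27, which lies with Cd74 in the lower left.

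Interferon ligands were almost undetected. No UMI of any Ifna gene listed was found in a cell of either library. Ifnb1, the ligand made by many cell types, had 3 UMIs in medial and 2 in lateral interferon response cells, and 0 and 0 in matched cells; over all cells it had 10 and 15. Ifng had 0 UMIs in interferon response cells of both libraries. At this depth the ligands could not be compared, and 0 of 20 reached the limit of 20 UMIs for the test.

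The receptor subunits did not pass the test. Ifnar1 stood at 59.4 CPM in medial and 69.4 CPM in lateral interferon response cells, against 62.8 and 59.6 CPM in matched cells, a log2 ratio of 0.04 ± 0.13 (SE; edgeR adjusted p = 0.964). Ifnar2 stood at 167 and 164 CPM, against 180 and 168 CPM (-0.09 ± 0.09, adjusted p = 0.827).

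Downstream of the receptor, 11 of 22 signalling genes and interferon regulatory factors were higher and 0 lower. DESeq2 gave 5 of 22, the fit with library left out 6 of 22, and a limit of 4 genes and thinned cells 7 of 21 each. Irf7 was at 207 CPM in medial and 256 CPM in lateral interferon response cells, against 28.2 and 18.4 CPM in matched cells. The log2 ratio was 3.25 ± 0.19 (edgeR adjusted p = 1.85e-05). The transcription factor Stat2, which works downstream of the receptor, was at 29.3 and 28.3 CPM, against 8.53 and 10.1 CPM (1.64 ± 0.21, adjusted p = 4.91e-08). Its DNA-binding partner Irf9 changed less, at 44.3 and 48.5 CPM against 25.1 and 27.1 CPM (0.82 ± 0.15, adjusted p = 0.000184), and DESeq2 and thinned cells gave no call for Irf9. The Isg15 pathway enzymes Ube2l6, which conjugates it, and Herc6, its ligase in mouse, were higher by log2 ratios of 1.28 and 2.10. Of the 57-base windows at the end of Herc6, 23.9% occur in Gm45193, so its reads are uncertain. Irf8, a lineage factor of microglia, was at 523 and 586 CPM, against 405 and 411 CPM (0.43 ± 0.07, adjusted p = 7.32e-06), a call lost in DESeq2 and with library left out of the model. Irf1 was at 81.1 and 109 CPM, against 57.3 and 86.0 CPM (0.42 ± 0.11, adjusted p = 0.0213); its call was lost under 5 of 14 other settings, among them the requirement of 4 genes.

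Of the antiviral effectors, genes whose products block steps of a viral cycle, 28 of 31 tested were higher and 1 lower, with a median log2 ratio of 1.81. In DESeq2 19 of the 31 were higher and 0 lower. With library left out of the model 25 were higher, and in thinned cells 23. Ifitm3, which blocks viral entry at membranes, was at 580 CPM in medial and 626 CPM in lateral interferon response cells, against 130 and 151 CPM in matched cells (2.10 ± 0.07, adjusted p = 2.12e-30). It was detected in 91.4% and 90.3% of these cells and in 67.6% and 66.4% of matched cells, so a basal level was common. Oasl2, a member of the oligoadenylate synthetase-like family, was at 100 and 109 CPM, against 17.2 and 10.1 CPM (2.87 ± 0.16, adjusted p = 5.84e-16). Its relative Oasl1, known in mouse to restrain Irf7 translation, was at 20.97 and 24.9 CPM, against 0.696 and 0.230 CPM. The matched cells held only 4 and 1 Oasl1 UMIs, which gives log2 ratios of 4.91 (3.47 to 6.84) in the medial and 6.76 (4.19 to 12.1) in the lateral library. Zbp1, a sensor of Z-form nucleic acid, was at 101 and 127 CPM, against 20.02 and 19.3 CPM (2.49 ± 0.13, adjusted p = 4.82e-22).

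Bst2 and Ifi27l2a started from a high level in matched cells and had smaller ratios. Bst2 (tetherin), which holds budding virus at the cell surface, was at 604 CPM in medial and 580 CPM in lateral interferon response cells, against 362 and 367 CPM in matched cells (0.69 ± 0.07, adjusted p = 8.38e-12). Ifi27l2a was at 1117 and 1083 CPM, against 706 and 643 CPM (0.70 ± 0.06, adjusted p = 4.98e-13). Its neighbour Ifi27 was lower, at 73.6 and 91.6 CPM against 108 and 114 CPM (-0.46 ± 0.11, adjusted p = 0.00511), a call lost under 4 of 14 settings, DESeq2 among them. Mx1, a dynamin-like GTPase, was at 20.6 and 44.4 CPM, against 2.78 and 0.690 CPM (3.97 ± 0.46, adjusted p = 0.000542); DESeq2 gave it an adjusted p of 0.0801. Trim30a was at 183 and 176 CPM, against 67.2 and 59.3 CPM (1.49 ± 0.10, adjusted p = 4.16e-18), and Oas1g at 13.1 and 18.2 CPM, against 2.78 and 3.68 CPM, with its call lost in DESeq2 and in thinned cells. Reads of Trim30a and Oas1g are uncertain, as 19.5% and 38.2% of their end windows occur in Trim30d and Oas1a.

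**Figure D3:**
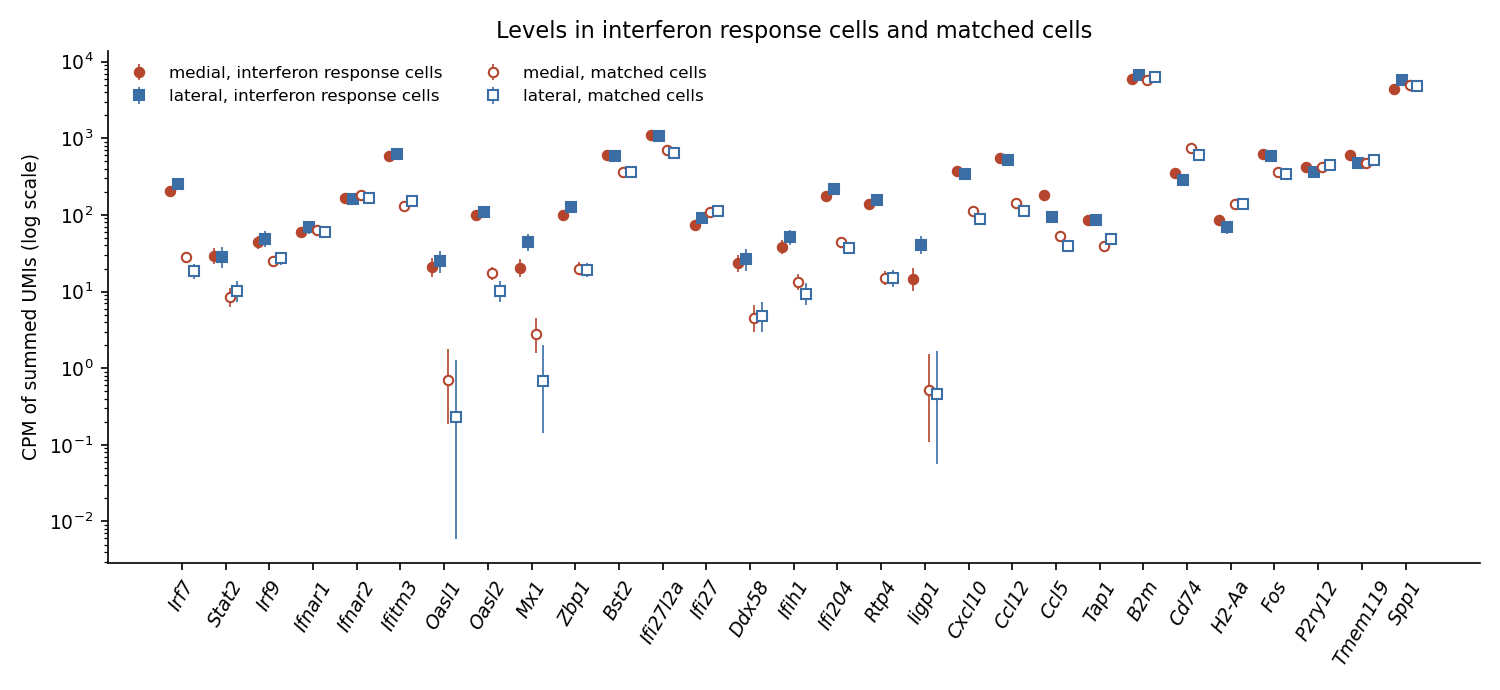
CPM of summed UMIs (log y axis) for named genes, with exact Poisson 95% intervals, in interferon response cells (filled) and matched cells (open) of the medial (red circles) and lateral (blue squares) library. Irf7, Ifitm3 and Rtp4 stand well above their matched cells in both libraries, while Ifnar1, Ifnar2, P2ry12 and B2m lie close to them and Cd74 and H2-Aa below.

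Sensors of foreign nucleic acid were higher for 9 of 16 tested genes, with 0 lower. Ddx58 (RIG-I), a cytoplasmic RNA sensor, was at 23.3 CPM in medial and 26.3 CPM in lateral interferon response cells, against 4.53 and 4.83 CPM in matched cells (2.38 ± 0.26, adjusted p = 2.44e-10). Ifih1 (MDA5), a sensor of long double-stranded RNA, was at 38.4 and 51.2 CPM, against 13.4 and 9.43 CPM (1.88 ± 0.19, adjusted p = 6.01e-10). Ifi204, a DNA-binding protein of the PYHIN family, was at 175 and 220 CPM, against 44.0 and 37.3 CPM (2.23 ± 0.11, adjusted p = 7.87e-18). Its relatives Mnda, Pyhin1 and Ifi205 had log2 ratios of 3.97, 3.98 and 4.51, but 73.9%, 45.5% and 37.8% of their end windows occur in other genes of the cluster, so the split among them is uncertain. The DNA sensor Mb21d1 (cGAS), its adaptor Tmem173 (STING) and the RNA adaptor Mavs did not pass, with log2 ratios of 0.49, 0.04 and 0.17; they were picked after their values were seen.

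Among the other interferon-stimulated genes 37 of 45 were higher and 0 lower; DESeq2 gave 17 higher, the fit with library left out 25 and thinned cells 24. Rtp4 was at 139 CPM in medial and 155 CPM in lateral interferon response cells, against 15.1 and 14.9 CPM in matched cells (3.26 ± 0.13, adjusted p = 7.22e-28). It was found in 69.7% and 68.1% of these cells and in 15.2% and 14.3% of matched cells, the groups standing far apart in both libraries. Phf11d, Phf11a and Phf11b had log2 ratios of 2.59, 3.03 and 2.25 and share sequence at their ends. Slfn5 was at 29.7 and 22.2 CPM, against 3.83 and 3.68 CPM (2.79 ± 0.27, adjusted p = 3.55e-12). Slfn2, which keeps T cells quiescent in mouse, was at 343 and 254 CPM, against 279 and 174 CPM (0.39 ± 0.08, adjusted p = 0.00053), and lost its call in DESeq2 and with library left out of the model. Ly6e, at 1043 and 936 CPM against 890 and 751 CPM (0.26 ± 0.06, adjusted p = 0.00553), and Lgals3bp, at 480 and 463 CPM against 358 and 333 CPM (0.44 ± 0.07, adjusted p = 6.89e-06), moved little and also lost their calls in DESeq2. 2 genes, named after their values were seen, were at 0 in all matched cells. Ifit1bl1, a relative of Ifit1, had 20 UMIs in medial and 25 in lateral interferon response cells, which is at least 15.2-fold and 24.4-fold higher against a floor of 3 counts per library. Pydc3 had 10 and 10, at least 7.58-fold and 9.76-fold higher. Both genes reached the count limit for the test through interferon response cells alone. They were picked for being at 0 in matched cells, so these folds follow from the choice and are a description only.

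Genes best known as targets of interferon gamma, several of which type I interferon also induces, were higher in 8 of 10 tested, or 5 in DESeq2, and lower in 0. The list holds 20 genes, and those under the limit of 20 UMIs for the test include Ciita, Nos2 and Ido1. That limit is on UMIs over the 4 sums, so a gene can reach it mainly through interferon response cells. Iigp1, an immunity-related GTPase on chromosome 18, had 37 UMIs in medial and 61 in lateral interferon response cells and 3 and 2 in matched cells. Its log2 ratios were 4.81 (3.15 to 7.15) in the medial and 6.48 (4.57 to 9.56) in the lateral library. It was found in only 16 of 175 medial and 15 of 113 lateral interferon response cells, and 1 lateral cell held 17 UMIs. Irgm1 was at 64.9 and 68.7 CPM, against 10.4 and 13.3 CPM (2.497 ± 0.16, adjusted p = 2.89e-18), and Gbp2 at 46.3 and 38.4 CPM, against 15.8 and 10.6 CPM (1.64 ± 0.18, adjusted p = 2.23e-10). Cxcl9, a chemokine induced chiefly by interferon gamma, was at 8.70 and 10.8 CPM, against 6.96 and 5.75 CPM (0.55 ± 0.31, adjusted p = 0.588). It was found in 6 of 175 and 3 of 113 cells, against 5 of 447 and 8 of 336 matched cells. Cxcl9 did pass as higher with a limit of 4 genes, with a limit of 2 genes and with 1 matched cell per member. Over the 14 other settings its log2 ratio ran from 0.48 to 3.13.

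Chemokines were higher for 7 of 14 tested and lower for 0, although Ccl6, at a log2 ratio of -0.27 ± 0.21 (adjusted p = 0.826), passed as lower under 5 of 14 settings, other scalings among them. Ccl12, a ligand of the monocyte receptor Ccr2, was at 547 CPM in medial and 523 CPM in lateral interferon response cells, against 143 and 112 CPM in matched cells (2.05 ± 0.08, adjusted p = 5.83e-28). Ccl2, another Ccr2 ligand, was at 131 and 112 CPM, against 50.6 and 25.8 CPM (1.63 ± 0.14, adjusted p = 1.44e-09). Cxcl10, a ligand of Cxcr3, a receptor on activated T cells, was at 374 and 343 CPM, against 113 and 88.1 CPM (1.82 ± 0.08, adjusted p = 2.68e-25). It was found in 57.1% and 52.2% of interferon response cells and in 40.7% and 39.6% of matched cells, so its level differed more than its detection. Ccl5 was at 182 and 94.9 CPM, against 52.7 and 38.9 CPM (1.59 ± 0.11, adjusted p = 1.9e-16), yet a single medial cell held 209 of its 461 medial UMIs. Ccl4 was at 2860 and 2246 CPM, against 1875 and 1176 CPM (0.76 ± 0.07, adjusted p = 2.47e-10). Without library as a block, 2 of the 14 passed, and Ccl2, Ccl5 and Ccl4 were among those lost.

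The promoters of tested genes were searched for the same element. Of the 234 genes that were higher, 172 had a promoter entry, and 35 of these (20.3%) held the ISRE core, against 228 of 7781 tested genes with an entry that did not pass (2.93%). Of the listed antiviral effectors with an entry, 10 of 27 held it. Irf7, Ifitm3, Oasl2, Oasl1 and Ccl12 had no match to these letters in the 250 bases. Bst2 held 2 overlapping matches and Cxcl10 held 1, which is shown, in capitals, as that of a responding chemokine outside the selection.
Cxcl10 (chr5:92349063-92349132, - strand): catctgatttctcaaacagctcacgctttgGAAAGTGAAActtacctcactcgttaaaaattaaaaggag

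Antigen presentation split by class. For MHC class I, 10 of 23 genes were higher and 0 lower. Tap1, the peptide transporter, was at 85.5 CPM in medial and 85.5 CPM in lateral interferon response cells, against 39.5 and 49.2 CPM in matched cells (0.96 ± 0.12, adjusted p = 2.97e-08). Psmb9, an immunoproteasome subunit, was at 105 and 110 CPM, against 59.5 and 66.7 CPM (0.77 ± 0.11, adjusted p = 5.54e-07). Among the class I chains H2-T22 was at 96.5 and 108 CPM, against 58.7 and 64.2 CPM (0.73 ± 0.11, adjusted p = 3.1e-06). Its reads are uncertain, as 27.4% of its end windows occur in H2-T10. The shared light chain B2m and the classical heavy chain H2-K1 did not pass, B2m at 5902 and 6775 CPM against 5808 and 6294 CPM (0.06 ± 0.06, adjusted p = 0.831), and H2-K1 at 597 and 606 CPM against 538 and 547 CPM (0.14 ± 0.07, adjusted p = 0.434). In DESeq2 1 of the 23 passed, with library left out of the model 3, and in thinned cells 4.

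For MHC class II, 4 of 13 genes were lower and 1 higher. Cd74, the invariant chain, was at 356 CPM in medial and 290 CPM in lateral interferon response cells, against 752 and 609 CPM in matched cells (-1.08 ± 0.07, adjusted p = 1.44e-18). H2-Aa was at 86.3 and 68.7 CPM, against 137 and 140 CPM (-0.83 ± 0.11, adjusted p = 2.83e-08). H2-Ab1 and H2-Eb1 had log2 ratios of -0.68 and -0.89. The difference lay in a few cells. As a median, the 4 genes together took 0.0189% of the UMIs of a medial and 0.0142% of those of a lateral interferon response cell, against 0.0163% and 0.0144% for matched cells, whereas the 95th percentiles were 0.0836% and 0.113%, against 0.645% and 0.361%. By a limit chosen after the values were seen, cells with at least 0.3% of UMIs from these genes were 4 of 175 and 4 of 113 interferon response cells, against 34 of 447 and 20 of 336 matched cells. With 1 matched cell per member H2-Aa, H2-Ab1 and H2-Eb1 no longer passed; H2-Aa also failed with a limit of 2 genes, H2-Eb1 in DESeq2, and Cd74 with thinned cells. Cd40, a co-stimulatory receptor, was at 10.7 and 9.43 CPM, against 4.35 and 2.30 CPM (1.52 ± 0.35, adjusted p = 0.00318), a call lost under 4 of 14 settings.

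**Figure D4:**
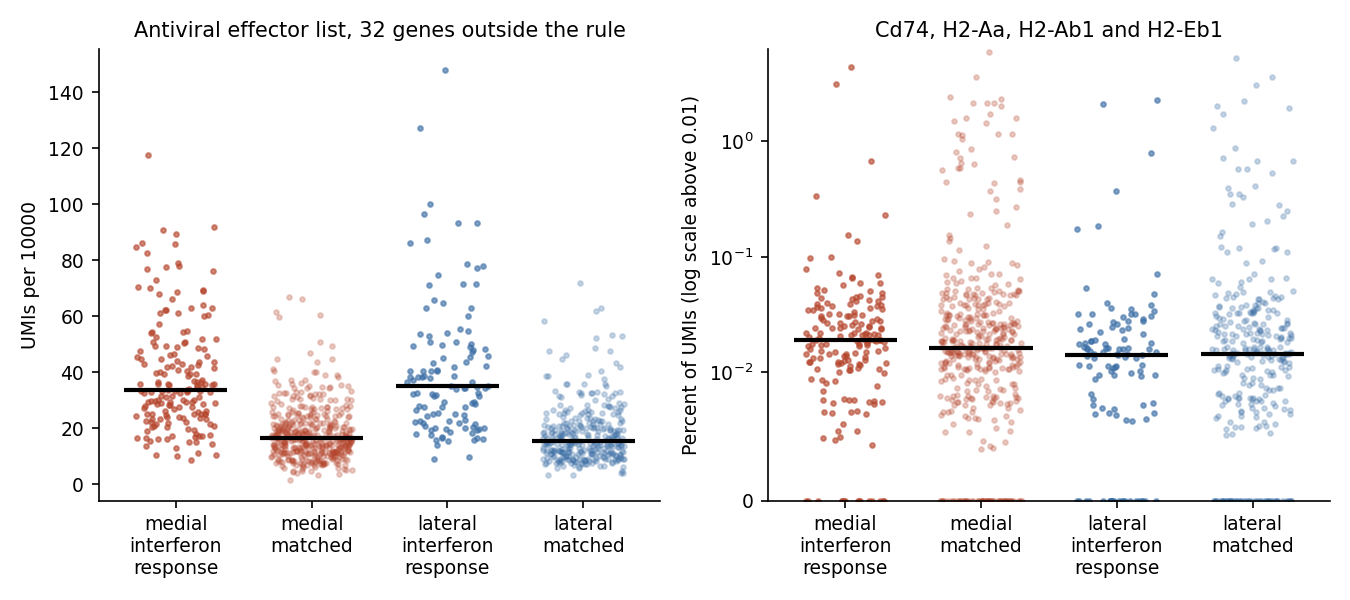
Each point is 1 cell and the bar its group's median. The left plot gives UMIs of the antiviral effector list per 10000 UMIs, where medians are 33.7 and 35.0 in medial and lateral interferon response cells and 16.4 and 15.4 in matched cells; the right plot gives the percent of UMIs from 4 MHC class II genes on an axis that is linear up to 0.01 and logarithmic above, where medians are alike and the upper tail is thinner in interferon response cells.

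The microglial identity genes were close to those of matched cells. In the homeostatic list 2 of 25 genes were higher, Jun and Txnip, and 0 lower, with a median log2 ratio of -0.0096. P2ry12, a purinergic receptor of resting microglia, was at 421 CPM in medial and 362 CPM in lateral interferon response cells, against 418 and 450 CPM in matched cells (-0.15 ± 0.07, adjusted p = 0.466). Tmem119 was at 606 and 480 CPM, against 478 and 522 CPM (0.12 ± 0.08, adjusted p = 0.688), and Cx3cr1 at 366 and 325 CPM, against 345 and 349 CPM (-0.01 ± 0.07, adjusted p = 0.983). In these genes the groups overlapped.

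Genes of disease-associated microglia, a state known from damaged and demyelinated brain, were higher in 2 of 30 and lower in 1. Axl, a receptor for dying cells that interferon also induces in macrophages, was at 350 CPM in medial and 366 CPM in lateral interferon response cells, against 264 and 282 CPM in matched cells (0.38 ± 0.07, adjusted p = 0.000198). Ch25h, which oxidises cholesterol and is likewise interferon-stimulated in mouse macrophages, was at 107 and 73.4 CPM, against 73.8 and 41.2 CPM (0.63 ± 0.12, adjusted p = 0.000173). Both calls, and that of Ank, were lost in DESeq2. Apoe was at 44376 and 50570 CPM, against 46544 and 39231 CPM (0.14 ± 0.12, adjusted p = 0.831), Spp1 at 4397 and 5792 CPM, against 4990 and 4837 CPM (0.03 ± 0.12, adjusted p = 0.975), and Itgax at 26.1 and 22.2 CPM, against 33.6 and 22.5 CPM (-0.26 ± 0.18, adjusted p = 0.71). Neither did Lgals3 pass, at 301 and 460 CPM against 314 and 367 CPM (0.12 ± 0.08, adjusted p = 0.691).

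Of the immediate early genes, a set that enzymatic or mechanical dissociation can switch on, 12 of 27 tested were higher and 0 lower. Fos was at 616 CPM in medial and 586 CPM in lateral interferon response cells, against 365 and 344 CPM in matched cells (0.75 ± 0.07, adjusted p = 5.2e-13), and Egr1 at 255 and 207 CPM, against 145 and 121 CPM (0.78 ± 0.08, adjusted p = 1.39e-10). The list had a median of 1.14% and 1.13% of UMIs per interferon response cell, against 1.05% and 0.876% per matched cell. With cells thinned to 4000 UMIs 1 of these genes passed, in DESeq2 7 and with library left out of the model 5, and the part of dissociation in the interferon result was not tested. Among cytokines and NF-kB genes 3 of 25 were higher and 1 lower. Tnf was at 404 and 296 CPM, against 249 and 242 CPM (0.51 ± 0.08, adjusted p = 1.16e-05), a call lost under 4 of 14 settings. Il18 was at 29.7 and 42.4 CPM, against 21.6 and 15.2 CPM (0.87 ± 0.20, adjusted p = 0.00629), lost under 5. Proliferation genes were higher in 2 of 32, Ube2c and Ccnb2, each lost under 6 settings. The count of the proliferation list depended on the cells compared: 27 of 32 were higher with a limit of 2 genes and 20 of 32 with unmatched cells, 0 in 6 other settings, and 15 of 32 at an unadjusted p under 0.05. Mki67 was at 32.4 and 41.7 CPM, against 25.8 and 44.1 CPM (0.12 ± 0.16, adjusted p = 0.881).

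Outside the lists the lowest log2 ratio was that of Fam131a, with 2 UMIs in medial and 2 in lateral interferon response cells and 30 and 24 in matched cells (-2.39 ± 0.58, adjusted p = 0.00767). Fn1, fibronectin, was at 82.7 and 78.1 CPM, against 107 and 118 CPM (-0.48 ± 0.11, adjusted p = 0.0028). Pcp4, Zdhhc21, Ap2a2 and Map4k4 had log2 ratios between -0.92 and -0.54. These 6 calls were each lost under 4 to 6 of 14 settings. Of the 70 named genes that passed, 31 passed under all 14.

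Levels of other genes were also followed by the number of selecting genes detected. Cells with 0, 1, 2, 3, 4 and 5 to 8 of the 8 genes had 28.0, 44.1, 78.7, 116, 239 and 385 CPM of Irf7 in the medial library. The lateral values were 24.2, 41.6, 75.3, 153, 197 and 531 CPM. Both series climb at every step, although depth climbs too, with median UMIs of 9187 in medial and 8453 in lateral cells with 0 of the genes and 13645.5 and 13351 in those with 3. From 3 genes on, median UMIs stayed between 12087 and 13955 in these groups. Ifitm3 followed the same order, at 146, 216, 346, 484, 570 and 811 CPM in medial and 157, 219, 259, 372, 547 and 1245 CPM in lateral cells.

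Cxcl10 did not follow every step. It stood at 115, 132, 178, 241, 277 and 766 CPM in medial cells and at 84.5, 113, 142, 100, 136 and 1060 CPM in lateral cells, so the lateral level was high in the last group, which held 31 cells. Ifi27l2a was highest in cells with 3 of the genes, at 1183 CPM medial and 1261 CPM lateral, and lower in the last group, at 968 and 967 CPM. Cd74 was at 782, 697, 619, 527, 135 and 170 CPM in medial cells over the same steps. In lateral cells it was at 479, 553, 695, 464, 57.9 and 140 CPM. The lateral level thus first rose, and with 3 of the genes it was near that of cells with 0. These values are a description of groups that the 8 genes define.

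**Figure D5:**
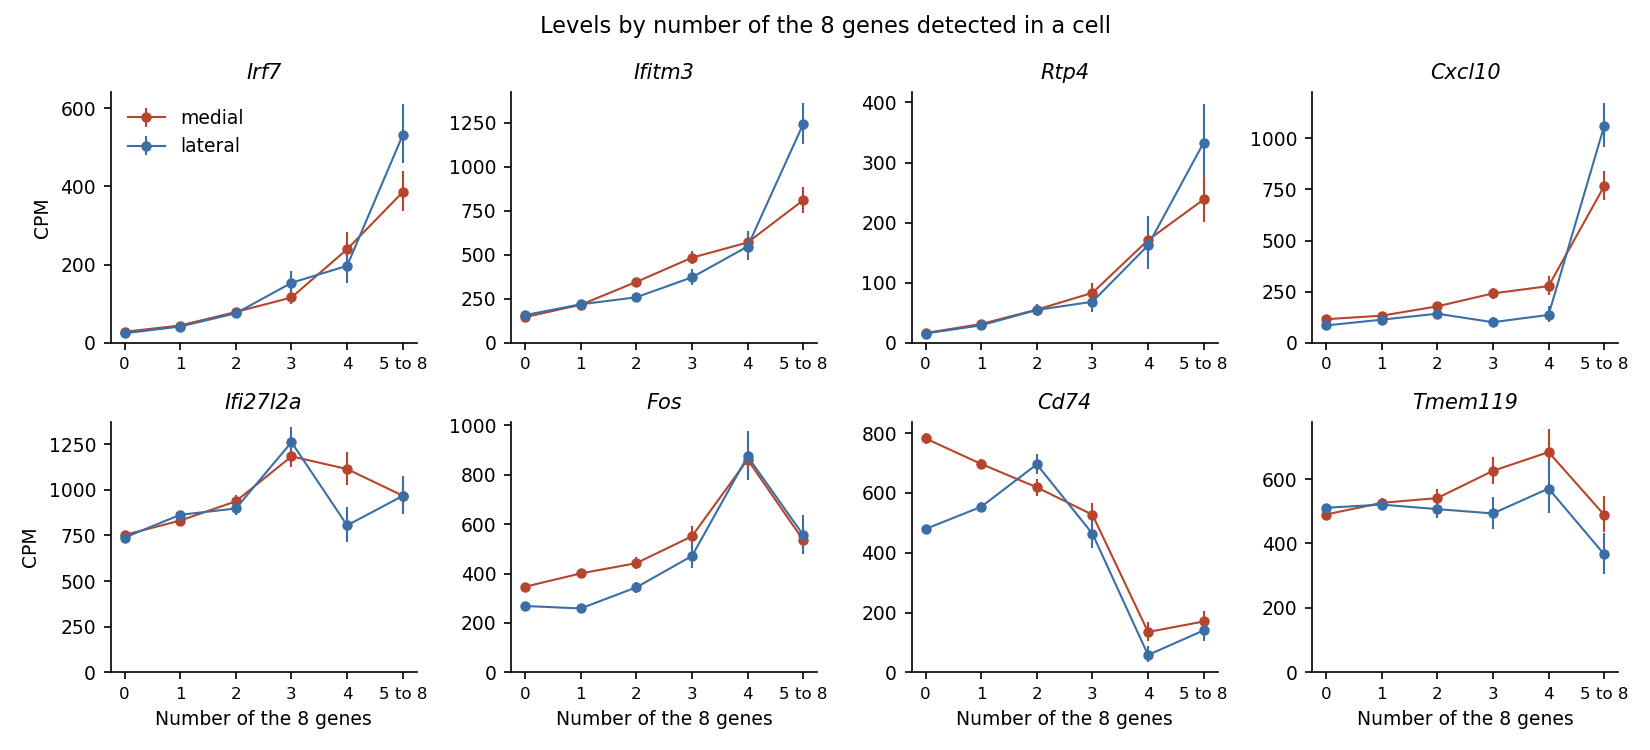
CPM of 8 genes outside the selection (y axis, from 0) in cells grouped by how many of the 8 selecting genes they held (x axis), with exact Poisson 95% intervals, in the medial (red) and lateral (blue) library. Irf7, Ifitm3 and Rtp4 climb with the number of genes in both libraries, and Cd74 is low in cells with 4 or more.

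Within interferon response cells the regions were set side by side without a test, as each had 1 library. Of 7615 genes with at least 30 UMIs, 779 (10.2%) were past 1.5-fold either way: 400 (5.25%) were past 1.5-fold higher and 379 (4.98%) past 1.5-fold lower in medial cells, and the median log2 ratio was -0.03. Some strongly induced genes were lower in the medial cells, while for others the interval held 0. Iigp1 was at 14.6 CPM in medial and 41.1 CPM in lateral interferon response cells, a log2 ratio of -1.49 (-2.12 to -0.88). Mx1 was at 20.6 and 44.4 CPM (-1.11, -1.66 to -0.56), and Irf7 at 207 and 256 CPM (-0.31, -0.50 to -0.11). Matched cells had the other order for Mx1, at 2.78 CPM medial and 0.690 CPM lateral, and for Irf7, at 28.2 and 18.4 CPM. For Iigp1 they held only 3 and 2 UMIs. The interval held 0 for Rtp4 (-0.15, -0.40 to 0.09), Oasl1 (-0.25, -0.88 to 0.40), Oasl2 (-0.12, -0.41 to 0.17) and Slfn5 (0.42, -0.19 to 1.05), among others. The 8 selecting genes chose the cells, and their levels here depend on the limit and on depth, so they are a description only. Ifit1 was at 65.7 CPM in medial and 140 CPM in lateral interferon response cells, a log2 ratio of -1.09 (-1.40 to -0.79). The log2 ratio was -0.53 for Cmpk2 (-0.95 to -0.10), -0.48 for Ifit2 (-0.75 to -0.21), -0.41 for Ifit3 (-0.62 to -0.21) and -0.27 for Rsad2 (-0.51 to -0.02), which stood at 0.0569 with a limit of 2 genes, while the intervals of Isg15 (0.01, -0.15 to 0.17), Usp18 (-0.09, -0.39 to 0.22) and Ifit3b (0.27, -0.19 to 0.74) held 0. Few cells weigh on Ifit1: 1 lateral cell held 53 of 208 Ifit1 UMIs and 1 medial cell 48 of 166.

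Other genes were higher in the medial interferon response cells. Ccl4 was at 2860 CPM in medial and 2246 CPM in lateral ones (0.35, 0.29 to 0.41), Slfn2 at 343 and 254 CPM (0.43, 0.26 to 0.61), Tnf at 404 and 296 CPM (0.45, 0.28 to 0.61), and Tnfaip2 at 152 and 84.8 CPM (0.84, 0.55 to 1.14). Ccl5 had a log2 ratio of 0.94 (0.67 to 1.22), with the single medial cell of 209 UMIs in it. Lgals3, a galectin, was lower in medial cells, at 301 and 460 CPM (-0.61, -0.76 to -0.46). Matched cells had the same order for Ccl4, at 1875 CPM medial and 1176 CPM lateral, for Slfn2, at 279 and 174 CPM, and for Lgals3, at 314 and 367 CPM. It was also the same in matched cells for Tnfaip2, at 180 and 127 CPM, for Ccl5, at 52.7 and 38.9 CPM, and narrowly for Tnf, at 249 and 242 CPM.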

How the data were processed

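The files hold whole-number counts of UMIs per gene and barcode, deposited without normalisation for 27998 genes and 737280 barcodes per library; empty droplets are thus among them. The authors used Cell Ranger 2.0.1, STAR and mm10, per the submitters' processing notes; the annotation version is not given there. Transcript reads were 57 bases, per the labels. The library totals were 28660496 UMIs for the medial and 27955414 for the lateral library.

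The 8 selecting genes, the gene lists, the tests and the named genes were all chosen with earlier results of these data known, so none is independent of them. Symbols carried by several gene IDs (56) were summed. Cells with none of the 8 genes were matched without replacement, deepest cell first, within 0.1 in the natural log of total UMIs. UMIs were summed per library and class. Genes with at least 20 UMIs over the 4 sums were tested in edgeR 4.0.16 (R 4.3.3), with TMM scaling, robust quasi-likelihood F-tests, library as a block and Benjamini-Hochberg adjustment; the fit has 1 residual degree of freedom per gene, and the 2 regions serve as replicates, so a difference between regions counts as spread. The fit was tested on simulated data. The 8 selecting genes stayed in the scaling and out of the test. SE is edgeR's log2 ratio divided by the root of its F value.

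Named genes were the 20 with the largest and the 10 with the lowest log2 ratio among those past an adjusted p of 0.05 with at least 50 UMIs and the same direction in both libraries, the 3 with the smallest p per list and direction, the 1 with most UMIs per list, and a fixed set of interferon, microglial and chemokine genes; 1 gene of the set is not reported here. CPM values have exact Poisson, ratios exact conditional binomial and shares exact Clopper-Pearson 95% intervals. Doublets were looked for with Scrublet (scanpy 1.11.5, rate set to 0.05), and marked cells stayed in. Such a caller can miss pairs of microglia. Alternatives were DESeq2 1.42.0, other scalings, filters, matchings, depths and limits.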

Additional observations from a re-analysis of the deposited data

Results flagged for a closer look

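For 6 named genes that did not pass the test, the log2 ratio of interferon response cells over matched cells had counting intervals wholly on opposite sides of 0 in the 2 libraries, and this difference was not tested. Ctss, a lysosomal protease, was at -0.0414 in the medial library and at 0.21 in the lateral one. Cst3, a protease inhibitor, was at -0.11 and 0.11. Apoe, the lipid carrier, was at -0.0688 and 0.37. Cd83, an activation marker, was at -0.10 and 0.11. Spp1, osteopontin, was at -0.18 and 0.26. H2afz, a histone variant, ran the other way, at 0.16 and -0.13.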

How the results depend on the processing

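The share of interferon response cells was 3.71% medial and 2.34% lateral with at least 4 genes required, 19.1% and 13.5% with at least 2, and 2.72% and 1.71% in thinned cells, so its size depends on the limit and the depth while the medial share was the higher under each setting tried. Against 234 genes higher and 25 lower, DESeq2 gave 79 and 3, the fit with no replicate block (library left out) 117 and 4, and a limit of 2 genes 402 and 97. Thinned cells gave 122 higher; lower genes were 49 with no filter on low counts, 39 without cells marked by Scrublet, and 95 with unmatched cells. The cause of these shifts was not tested. Of 1245 values of named genes with an adjusted p over 14 settings, 1119 kept direction and side of the threshold, 113 lost the threshold, 6 gained it and 7 changed sign. The last were Tnfaip3 (-0.13, thinned), Spp1 (-0.43, thinned), Ccnb2 (-0.15, 4 genes), and Ube2c at -0.25 with 4 genes, -0.15 thinned, -0.00022 with 1 matched cell per member, and -0.24 with cells of at most 20000 UMIs, a limit added after the data were seen. With either library left out there was no test. Each of the 70 named genes that passed kept its sign, but this was fixed beforehand, as every gene that passed had the same sign in both libraries. Of the medial over lateral log2 ratios within interferon response cells, 13 changed sign. With a limit of 2 genes these were Cd74 (-0.13), P2ry12 (-0.0108) and Rsad2 (0.0569). In thinned cells they were Cd74 (-2.01), H2-Eb1 (-1.85), H2-Ab1 (-0.95), Irf8 (0.0312), Jun (-0.18), Cst3 (0.0651), Cd83 (0.14), P2ry12 (-0.0406), Sall1 (0.79) and Spp1 (0.51). Thinned cells were not matched, since all had 1 depth. No paired analysis by replicate number was possible because each region has 1 library. The depth limits the interferon ligands, which stayed under the limit for a test.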

Other observations

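Some genes outside the lists also passed the test; those given here were chosen after their values were seen, from edgeR's quasi-likelihood fit with Benjamini-Hochberg adjustment. Fcgr1, the high-affinity receptor for immunoglobulin G, was at 271 CPM in medial and 287 CPM in lateral interferon response cells, against 146 and 142 CPM in matched cells (log2 ratio 0.94 ± 0.08 SE, adjusted p = 1.15e-13). Nampt, an enzyme of NAD salvage, was at 78.7 and 84.8 CPM, against 40.03 and 37.9 CPM (1.04 ± 0.13, adjusted p = 5.49e-09). Cd47, the signal that restrains phagocytosis, was at 149 and 151 CPM, against 91.0 and 84.8 CPM (0.75 ± 0.10, adjusted p = 3.88e-08). In each of these both sums of interferon response cells lay above both sums of matched cells, but how many of all tested genes did so was not counted.

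Tspo, a mitochondrial protein used as an imaging marker of reactive microglia, was at 542 CPM in medial and 512 CPM in lateral interferon response cells, against 412 and 380 CPM in matched cells (0.40 ± 0.07, adjusted p = 2.53e-05). Mt1, a metallothionein that binds zinc and copper, was lower, at 542 and 510 CPM against 713 and 636 CPM (-0.37 ± 0.07, adjusted p = 8.03e-05). Gas6, a ligand of Axl, was also lower, at 632 and 687 CPM against 714 and 820 CPM (-0.22 ± 0.06, adjusted p = 0.0423). Axl itself was higher, but its call was lost in DESeq2 and with library left out of the model. The 3 genes lower in DESeq2 and the 4 with library left out were all MHC class II genes. The calls of Mt1 and Gas6 were thus lost in both.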
